A study of Mus musculus with 4 samples.

Results

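The genes described here are 10 members of the Notch pathway, taken by symbol from the 47937 gene rows of a count table of mouse embryonic fibroblasts (MEF cells), connective tissue cells grown from mouse embryos. They are the 4 receptors Notch1, Notch2, Notch3 and Notch4, the ligands Jag1 and Jag2, and the target genes Hes1, Hey1, Heyl and Nrarp. The list was drawn up because Notch3 was among the strongest rises after genistein, a plant isoflavone. That comparison therefore chose the members, and their changes in it are given as a description, with a standard error and no p-value. Where a call of a member is mentioned, it is a description too.

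Total RNA depleted of ribosomal RNA was sequenced from wild-type MEF cells that were untreated and from MEF cells given genistein at 50 µM for 24 h, with 2 libraries in each group. The genistein libraries carry the treatment in place of a genotype in their labels. The labels name no vehicle for the untreated libraries, and whether replicates came from separate cultures or embryos is not given in the sources used here, so the replicate spread may be technical. The libraries held 28591958 to 31464284 counts over genes and repeats, and replicates differed by more than sampling noise, with a reduced chi-square of 5.48 between the untreated and 12.1 between the genistein libraries. Of 9 fibroblast markers, 7 had enough counts to be tested, and Col1a1, Col1a2, Vim and Fn1 each had at least 54168 normalised counts in every library, whereas Thy1 had no count and Lum at most 9.99. Normalised counts are counts scaled to the mean effective size of the 4 libraries.

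Notch receptors are single-pass membrane proteins that are activated by ligands of the Jagged and Delta-like families on neighbouring cells. Binding exposes the receptor to cleavage by an ADAM protease and then by gamma-secretase, and the released intracellular domain enters the nucleus, binds the DNA-binding protein RBPJ together with a Mastermind coactivator, and switches on genes such as Hes1, Hey1, Heyl and Nrarp. Notch1 and Notch2 are widely expressed, Notch3 is best known from pericytes and vascular smooth muscle, and Notch4 from endothelium. Receptor and ligand transcripts measured in bulk RNA say nothing of cleavage. More cells with a transcript and more transcript per cell cannot be told apart in bulk libraries.

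Stretches of promoter are shown for the receptors Notch1, Notch2 and Notch3, since Notch1 and Notch3 moved together and Notch2 hardly moved. RefSeq promoter windows of 300 bases on GRCm38.p6, from 250 bases before a start site to 50 after it, were at hand for 7 of the 10 members, without Hes1, Hey1 and Heyl. Each line gives 30 bases upstream of the start site, 5′ to 3′ on the gene's own strand, around the upstream match of GGGCGG on that strand that lies closest to the start. Capitals mark GGGCGG, the GC box that Sp1-type factors can bind.
Notch1, chr2:26503836-26503865, minus strand: gggcccccatagGGGCGGagcgcccgcccg
Notch2, chr3:98013444-98013473, plus strand: cggcggcgacggGGGCGGagcctcgcggtg
Notch3, chr17:32166896-32166925, minus strand: gcccaggcctggGGGCGGggcagcccgaca
The matches began 31, 82 and 23 bases before the RefSeq start site of the window. For Notch1 that start lies inside the gene as GENCODE draws it, whose bounds are given with its values and reach to an earlier start.

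GGGCGG, searched on both strands, occurred 5 times in the Notch1 window, 7 times in that of Notch2, 4 times in that of Notch3, 5 times in that of Jag2 and 2 times in that of Nrarp. Those of Notch4 and Jag1 held none. Of all 32851 windows, 35.66% held at least 1 match. The windows of Notch1, Notch2 and Notch3 had a GC content of 68.3%, 73.0% and 70.0%. TGGGAA, the core of the RBPJ motif, and TATAAA, the TATA box, both searched on both strands, had 0 matches in the 7 windows, against 25.56% and 13.62% of all windows. Notch2, which changed little, thus shared the GC box with Notch1 and Notch3, which rose. The window of Notch4, whose change was smaller than its standard error, held none. Whether these letters bear on the changes was not tested.

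Notch3 (ENSMUSG00000038146; GRCm38 chromosome 17, 32120820 to 32166852, minus strand) rose most among the members. The untreated libraries held 144 and 122 normalised counts of it (133 ± 15.6, SD, n = 2), and the genistein libraries held 2657 and 2329 (2493 ± 232, SD, n = 2). Both genistein libraries thus stood far above both untreated libraries, and the gap was much wider than the spread within either pair. On the log2 scale the change was 4.23 (standard error 0.09), or 18.7-fold. By size of log2 fold change Notch3 ranked 35 of 16240 tested genes, and 5 of the 637 genes that were higher past the thresholds of the study (adjusted p under 0.05, absolute log2 fold change over 1 and mean normalised count over 100). The untreated level rested on 144 and 115 raw counts, and across fits that each left out 1 library the log2 fold change lay from 4.11 to 4.35.

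Notch1 (ENSMUSG00000026923; chromosome 2, 26457903 to 26516663, minus strand) was the other receptor with a large rise. Without genistein it had 623 and 601 normalised counts (612 ± 15.6, SD, n = 2), and with genistein 3592 and 3180 (3386 ± 291, SD, n = 2). The groups did not overlap. Its log2 fold change of 2.47 (standard error 0.06), or 5.53-fold, ranked 163 among the tested genes.

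Notch2 (ENSMUSG00000027878; chromosome 3, 98013527 to 98150361, plus strand) was the most abundant receptor before treatment and moved little. It had 6044 and 6015 normalised counts without genistein, against 6890 and 6635 with it. Both genistein values were the higher ones, but the difference was small, with a log2 fold change of 0.17 and a standard error of 0.03, or 1.12-fold. Notch4 (ENSMUSG00000015468; chromosome 17, 34564268 to 34588503, plus strand) was the least abundant receptor. It had 16.0 and 15.9 normalised counts without genistein, against 23.4 and 13.2 with it. The genistein libraries lay on either side of the untreated ones, and the log2 fold change of 0.21 was smaller than its standard error of 0.35.

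**Figure D1:**
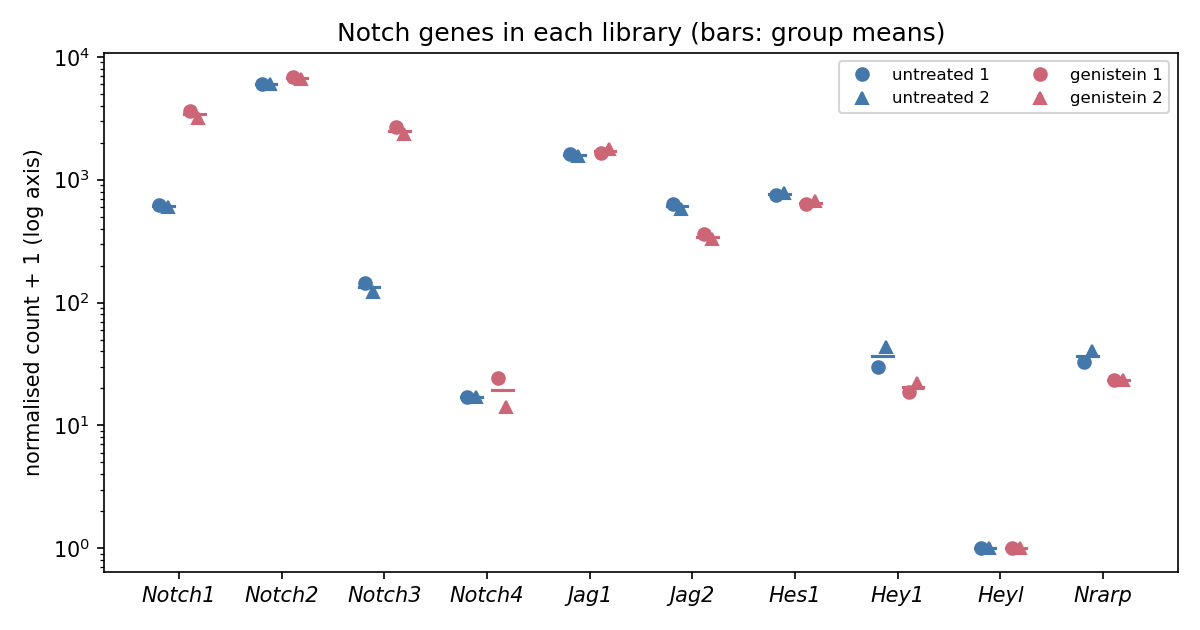
Normalised count plus 1 (log axis) of each Notch gene in the 2 untreated and 2 genistein libraries, with a bar at each group mean. Notch1 and Notch3 were separated widely between groups, Notch2 and Jag1 narrowly, Notch4 overlapped, and Heyl had 0 counts in all 4 libraries.

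Levels of different genes were compared per length, as RPKM, which divides a count by the exon length of its gene and by the effective size of the library. In the untreated libraries the receptors had 18.7 ± 0.0618 RPKM for Notch2, 1.44 ± 0.0366 for Notch1, 0.549 ± 0.0646 for Notch3 and 0.0661 ± 0.0003 for Notch4 (SD, n = 2). Notch2 therefore made up 89.8% and 90.4% of the summed receptor RPKM, Notch1 7.02% and 6.85%, and Notch3 2.85% and 2.44%. In the genistein libraries the values were 20.97 ± 0.560 RPKM for Notch2, 10.3 ± 0.960 for Notch3, 7.95 ± 0.684 for Notch1 and 0.0759 ± 0.0302 for Notch4 (SD, n = 2). The share of Notch2 was then 52.3% and 54.5%, that of Notch3 26.9% and 25.5%, and that of Notch1 20.6% and 19.8%. The summed receptor RPKM went from 20.9 and 20.6 in the untreated libraries to 40.9 and 37.7 in the genistein libraries, and most of that gain came from Notch3 and Notch1. Notch3 lay above Notch1 after genistein only with the union of exons as the length. With the longest transcript the genistein level of Notch1 was 11.9 RPKM, that of Notch3 10.4 RPKM and that of Notch2 21.5 RPKM. The shares and sums above use the union of exons and would differ with that length.

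**Figure D2:**
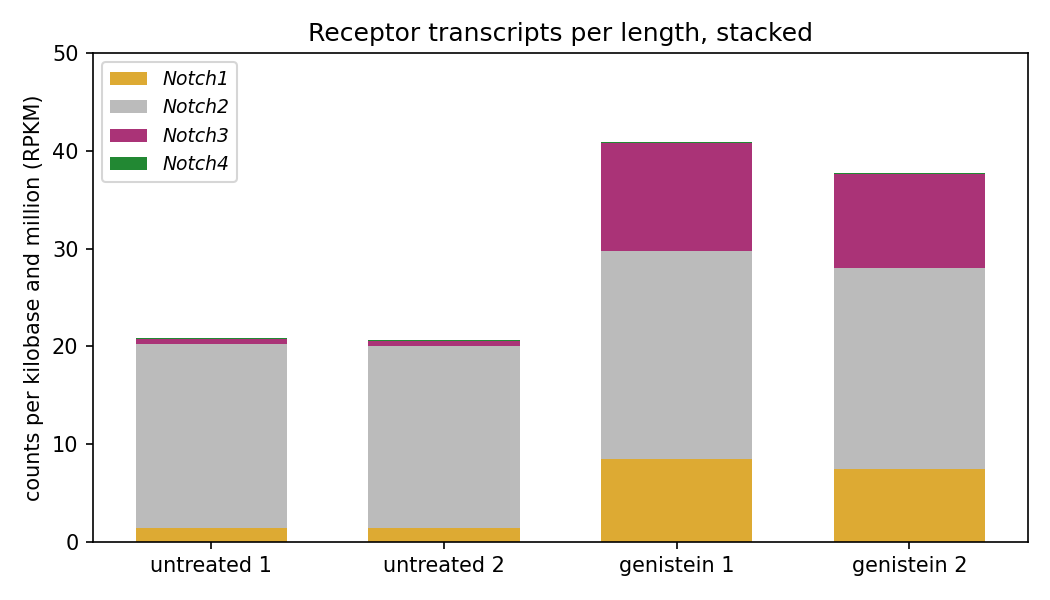
Stacked bars of receptor transcripts per length (RPKM, from 0) in each of the 4 libraries. The stack is 20.6 to 20.9 RPKM high in the untreated libraries, mostly Notch2, and 37.7 to 40.9 RPKM high in the genistein libraries, where Notch3 and Notch1 form wide bands and Notch4 remains too thin to see.

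The Jagged ligands showed no rise of the size seen for Notch3 and Notch1. Jag1 (ENSMUSG00000027276; chromosome 2, 137081456 to 137116644, minus strand) encodes a ligand that many cell types use. It had 1600 and 1546 normalised counts without genistein, against 1640 and 1770 with it. The genistein values were the higher ones by a narrow margin, with a log2 fold change of 0.12 and a standard error of 0.05. This small log2 fold change fell to 0.09 without untreated 2 and to 0.06 without genistein 2. With DESeq2 it did not pass an adjusted p of 0.05. Jag2 (ENSMUSG00000002799; chromosome 12, 112907819 to 112929776, minus strand), the second Jagged ligand, fell. It had 637 and 573 normalised counts without genistein, against 358 and 327 with it, without overlap. Its log2 fold change of -0.82 (standard error 0.08), or 1.77-fold lower, was short of the fold threshold. Jag1 stayed the more abundant ligand per length, at 9.02 ± 0.222 against 2.90 ± 0.219 RPKM in the untreated libraries and 9.78 ± 0.529 against 1.64 ± 0.106 RPKM in the genistein libraries (SD, n = 2).

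None of the target genes among the members was higher after genistein, and other Notch targets are described further below. Hes1 (ENSMUSG00000022528; chromosome 16, 30064384 to 30067796, plus strand) encodes a basic helix-loop-helix repressor and is a common readout of Notch signalling. It had 751 and 772 normalised counts without genistein, against 630 and 668 with it. The groups did not overlap, and Hes1 differed by -0.23 on the log2 scale (standard error 0.06), or 1.17-fold lower. Hey1 (ENSMUSG00000040289; chromosome 3, 8663359 to 8667256, minus strand) encodes a related repressor. It had 28.97 and 42.3 normalised counts without genistein, against 17.8 and 21.3 with it. Nrarp (ENSMUSG00000078202; chromosome 2, 25180758 to 25183339, plus strand) encodes an ankyrin repeat protein that dampens Notch signalling. It had 31.97 and 39.2 normalised counts without genistein, against 22.5 and 22.3 with it. Both genes were thus lower in both genistein libraries, with log2 fold changes of -0.86 (standard error 0.29) for Hey1 and -0.66 (standard error 0.26) for Nrarp.

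Those changes rested on few reads, since Hey1 had 29, 40, 19 and 21 raw counts and Nrarp 32, 37, 24 and 22 in untreated 1, untreated 2, genistein 1 and genistein 2. The log2 fold change of Hey1 was -0.57 without untreated 2 and -0.73 without genistein 1. That of Nrarp was -0.52 without untreated 2, -0.66 without genistein 1 and -0.65 without genistein 2. With DESeq2 neither gene passed it. Heyl (ENSMUSG00000032744; chromosome 4, 123233556 to 123249875, plus strand), a HEY family repressor found with Notch3 in vascular smooth muscle, had 0 counts in all 4 libraries. A count of 0 allows up to 3 counts in a library, or 3.18 normalised counts in the smallest one, which covers counting error only.

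Of the 10 members, 9 passed the filter on low counts. Of those 9, 2 were higher past all 3 thresholds of the study and 0 were lower, both by edgeR and by DESeq2, beside 3.92% of all 16240 tested genes that were higher and 4.16% that were lower by edgeR. At an adjusted p under 0.05 alone, edgeR gave 4 higher (Notch1, Notch2, Notch3 and Jag1) and 4 lower (Jag2, Hes1, Hey1 and Nrarp). These stood beside 33.5% higher and 38.2% lower of all tested genes at the same adjusted p. The same 4 and 4 did not overlap between groups, beside 40.7% higher and 44.6% lower of all tested genes. At an unadjusted p under 0.05 edgeR gave 4 higher and 4 lower, and DESeq2 3 higher and 2 lower. The share of all tested genes at an unadjusted p is not given, so these counts have no background here. As the members were chosen from this comparison, nothing is read from these counts.

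**Figure D3:**
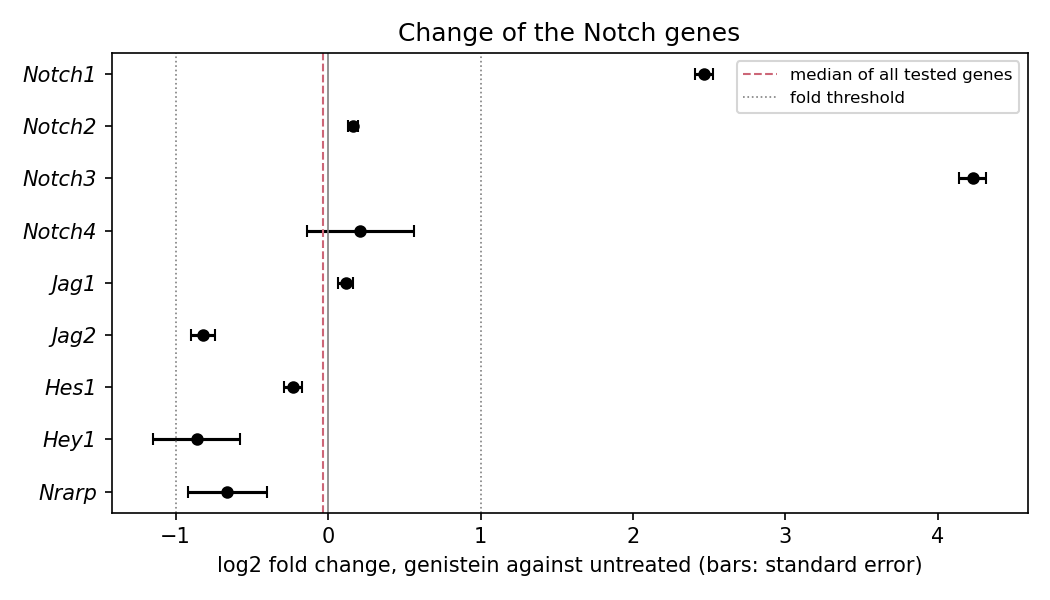
Log2 fold change of genistein against untreated for the 9 tested Notch genes, with standard errors as bars, the median of all tested genes (-0.03) as a dashed line and the fold thresholds as dotted lines. Notch3 at 4.23 and Notch1 at 2.47 lie far beyond the upper threshold, and the 4 genes below 0 are Jag2, Hes1, Hey1 and Nrarp.

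In the untreated libraries the order of levels per length was Notch2, Hes1, Jag1, Jag2, Notch1, Notch3, Nrarp, Hey1, Notch4 and Heyl. Neighbours in this order overlapped between libraries for Notch3 and Nrarp (0.503 to 0.595 and 0.414 to 0.507 RPKM) and for Nrarp and Hey1 (0.297 to 0.434 RPKM). In the genistein libraries Notch3 stood among the abundant members. Its 9.63 to 10.98 RPKM overlapped the 10.3 to 10.96 RPKM of Hes1 and the 9.41 to 10.2 RPKM of Jag1, and Notch1 followed with 7.47 to 8.44 RPKM. This order holds for the union of exons. With the longest transcript as length, the genistein means were 14.8 RPKM for Hes1, 11.9 for Notch1 and 10.4 for Notch3.

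Members also shared chromosomes without sharing a change. Notch3 and Notch4 lie 2.40 Mb apart on chromosome 17, with log2 fold changes of 4.23 and 0.21. Notch1 and Nrarp lie 1.27 Mb apart on chromosome 2, with log2 fold changes of 2.47 and -0.66. The genes next to Notch3 stayed at low counts. Pdxk-ps, a transcribed pseudogene 13470 bases away, had 5.99 and 4.24 normalised counts without genistein, against 15.9 and 15.2 with it, or 1.58 on the log2 scale (standard error 0.44, adjusted p = 0.0047 in edgeR's quasi-likelihood test). On the other side Ephx3, which encodes an epoxide hydrolase and lies 16918 bases away, had 3.996 and 6.35 normalised counts without genistein, against 3.75 and 2.02 with it, too few to be tested.

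Genes that overlap a member were checked, because the strand setting of the counter was not stated. Gm17276, which overlaps Notch3 on the opposite strand, had 0, 0, 0 and 1 raw counts in untreated 1, untreated 2, genistein 1 and genistein 2. Gm38287, opposite Nrarp, and the pseudogene Gm20462, opposite Notch4, had no count. 0610009E02Rik, which overlaps the end of Notch1 on the opposite strand, had 20.0 and 31.8 normalised counts without genistein, against 46.9 and 28.3 with it, far below Notch1 itself, and Gm13568, also opposite Notch1, had at most 6.07. On the same strand, Gm42819 and Gm42820 lie within Notch2. They had 168 to 216 and 284 to 286 normalised counts without genistein, against 290 to 325 and 309 to 351 with it. The microRNA genes Mir6996 in Notch1 and Mir6941 in Jag2 had at most 7.50 and 3.18. The genes overlapping Notch1 and Notch3 thus held few reads beside those of the receptors.

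A list of 76 other genes of the pathway, by role and from general knowledge, was then described in the same fit. Of these, 59 had enough counts to be tested. At an adjusted p under 0.05, 29 were higher and 16 were lower, together 76.3% against 71.7% of all tested genes. The counts by role given next use this threshold and stand beside 33.5% higher and 38.2% lower of all tested genes. The groups are small, none was tested as a group, and no direction is read from their counts. Past all 3 thresholds, 1 was higher (Neurl1b) and 1 was lower (Myc), together 3.39% against 8.08% of all tested genes. The median log2 fold change was 0.12, and that of all tested genes was -0.03.

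Among genes of receptor processing, 5 of 9 tested were higher and 1 was lower, together 66.7% against 71.7% of all tested genes. Adam10, the main protease of the first, ligand-induced cleavage, had 3807 and 3892 normalised counts without genistein, against 6323 and 6301 with it (log2 fold change 0.71, standard error 0.03, adjusted p = 6.5e-12, edgeR). Adam17, a related protease, differed by 0.14 (adjusted p = 0.0052, edgeR), a call that was lost with DESeq2. Without untreated 2 its log2 fold change was 0.12. Of the gamma-secretase complex, the subunit Ncstn was higher at 0.48 (adjusted p = 1.8e-07, edgeR), while Psen2 was the lower gene of the group, at -0.37. The values of Notch3 and Notch1, 4.23 and 2.47, lie beyond the range of this group, -0.37 to 1.28. The rise of Notch3 in this comparison chose the members, so nothing is read from that difference.

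Of the enzymes that add sugars to Notch receptors, 4 could be tested, and 2 were lower, or 50% against 71.7% of all tested genes. Lfng, the Fringe glycosyltransferase that alters which ligand a receptor prefers, had 777 and 826 normalised counts without genistein, against 442 and 476 with it (log2 fold change -0.81, standard error 0.06, adjusted p = 1.1e-08, edgeR). The second was Poglut1, at -0.45, while Rfng and Pofut1 differed by -0.20 and 0.04 without passing the test.

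Of the 9 other ligands, 1 had enough counts to be tested. This was Dlk2, a Delta-like protein that lacks the receptor-activating domain of the classical ligands, at a log2 fold change of 0.81. The activating ligands Dll1 and Dll4 had 1.998 to 8.10 and 0 to 1.06 normalised counts over the 4 libraries, and Dll3 had at most 5.06. Jag1 and Jag2 thus held nearly all of the counts of receptor-activating ligands in both groups.

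Among genes of ligand activation and receptor turnover, 9 of 13 tested were higher and 2 were lower, together 84.6% against 71.7% of all tested genes. Neurl1b, a ubiquitin ligase of Notch ligands, had 245 and 273 normalised counts without genistein, against 551 and 526 with it (log2 fold change 1.06, standard error 0.08, adjusted p = 5.7e-09, edgeR). Without untreated 1 its log2 fold change was 0.98, just short of the fold threshold. Mib1, the main ubiquitin ligase of Jagged and Delta-like ligands, was lower at -0.43. Numb and Numbl, inhibitors of Notch, were higher at 0.27 and 0.55, and so was Fbxw7, which marks the released intracellular domain for degradation, at 0.30. Itch of the same group was lower at -0.19, and Dtx2 and Dtx3 differed by -0.03 and 0.04 without passing the test.

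In the nucleus, 5 of 8 tested activators were higher and 2 were lower, together 87.5% against 71.7% of all tested genes. Rbpj, the DNA-binding partner of every Notch receptor, had 2355 and 2388 normalised counts without genistein, against 2096 and 2054 with it (log2 fold change -0.19, standard error 0.04, adjusted p = 0.00027, edgeR). The Mastermind coactivator Maml1 was higher at 0.34 (adjusted p = 2.1e-05, edgeR). Of 12 corepressors tested, 3 were higher and 5 were lower, together 66.7%. Hdac2 and Ctbp1, parts of repressor complexes, were lower at -0.66 and -0.51, and Kdm5a, a histone demethylase, was higher at 0.48. Ncor1, a corepressor recruited by RBPJ, differed by 0.04 without passing the test.

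Of the 19 other genes known as Notch targets in some tissue, 12 could be tested. Of these, 6 were higher and 4 were lower, together 83.3% against 71.7% of all tested genes. Myc, which encodes a growth-promoting transcription factor, had 2850 and 2663 normalised counts without genistein, against 1221 and 1324 with it (log2 fold change -1.12, standard error 0.05, adjusted p = 4.8e-12, edgeR). Ccnd1, which encodes cyclin D1, was lower at -0.70. Hes6, a member of the HES family that opposes Hes1, was higher at 0.73, as were Snai2 at 0.73 and Sox9 at 0.65. Hes5 had no count in any library, and Hey2 had 1.998 and 4.24 normalised counts without genistein, against 12.2 and 4.05 with it, too few to be tested. Many of these genes are also controlled by other pathways.

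**Figure D4:**
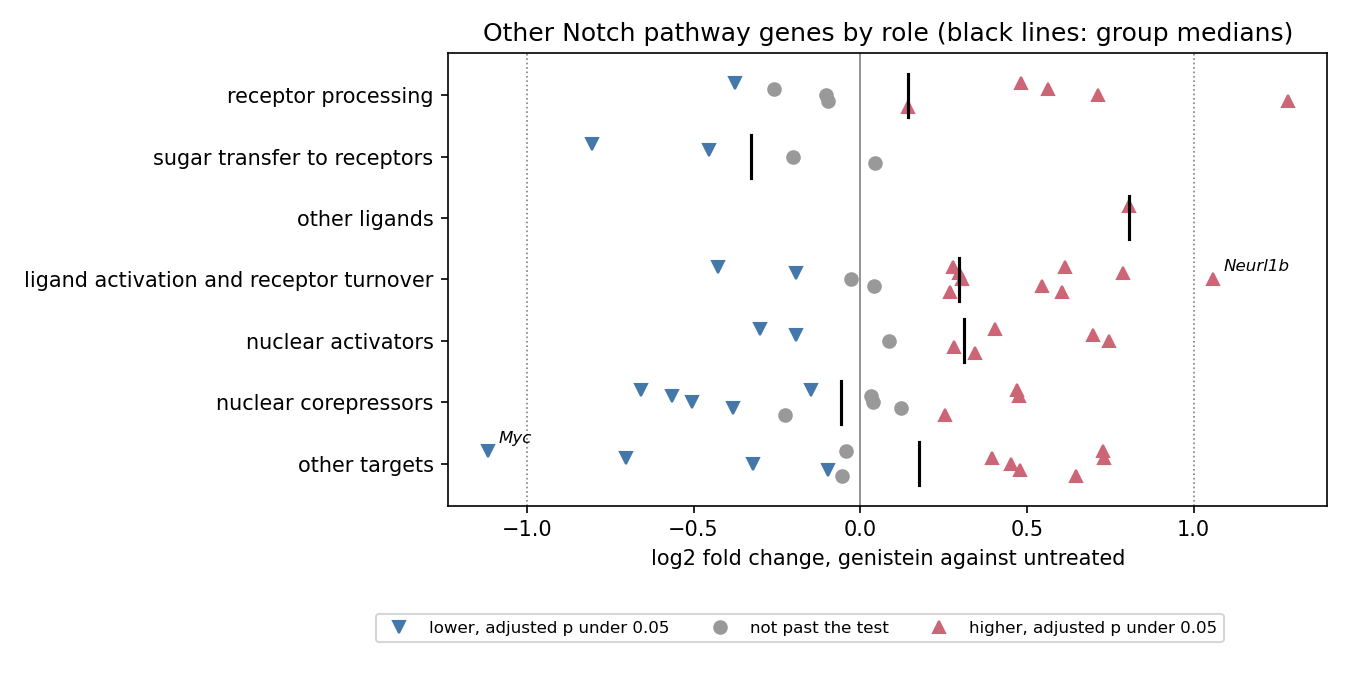
Log2 fold change of genistein against untreated for the 59 tested pathway genes other than the members, in rows by role, with triangles for genes past an adjusted p of 0.05 (up higher, down lower), grey circles for the rest, black lines at group medians and dotted lines at the fold thresholds. Neurl1b and Myc are labelled as the genes past all 3 thresholds, and of the others Aph1c (1.28, with a mean count too low) alone lies outside -1 to 1.

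Markers of cells in which Notch receptors are best known were described too. Of 12 markers of pericytes and smooth muscle, 7 could be tested, with 5 higher and 1 lower at an adjusted p under 0.05. Marker counts in this paragraph and the next use this threshold, beside 33.5% higher and 38.2% lower of all tested genes. No direction is read from these small lists. Their summed level was 14751 to 15087 normalised counts without genistein, against 18714 to 18863 with it, most of it from Acta2, which cultured fibroblasts also express. Des, an intermediate filament gene of muscle, was highest at a log2 fold change of 3.03, and Pdgfrb, a receptor of pericytes that fibroblasts also carry, was lowest at -0.73. Higd1b had no count, Abcc9, Kcnj8, Myh11 and Cspg4 had at most 3.18 normalised counts, and the part of such cells in the Notch3 rise was not tested.

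Of 10 endothelial markers, 2 could be tested, and Kdr was higher at a log2 fold change of 1.98, while Egfl7 differed by -0.25 without passing the test. The summed level of the endothelial markers was 166 to 188 normalised counts without genistein, against 202 to 223 with it. Tie1, Cldn5 and Erg had no count, and Cdh5 and Emcn had at most 1.01. Of 5 blood cell markers, 2 could be tested, and both were higher, with 1.496 for Cd68 and 1.46 for Csf1r, whereas Adgre1 and Cd3e had no count and Ptprc had at most 1.01. The blood cell markers summed to 192 to 209.8 normalised counts without genistein, against 546 to 569.9 with it. Of 5 epithelial markers, 3 could be tested and all 3 were lower, from -2.76 for Krt18 to -1.74 for Krt8, and Epcam had no count. The epithelial markers summed to 1130 to 1163 normalised counts without genistein, against 231 to 251 with it. Of the 7 fibroblast markers tested, 2 were higher and 5 were lower, from -0.50 for Col1a2 to 1.08 for Dcn. The fibroblast markers summed to 425510 to 437323 normalised counts without genistein, against 407311 to 416460 with it. The part of these cell types in the receptor changes was not tested.

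The genes closest to Notch3 in pattern were found from the log2 CPM of each gene, centred on its mean over the 4 libraries, by Euclidean distance among 10233 candidates. They were Celf5 at a distance of 0.27, Trp53inp1 at 0.38, Dcxr at 0.76, Serpina3n at 0.82 and Tbc1d8 at 0.98. Their log2 fold changes were 4.14, 3.89, 3.47, 3.62 and 3.48. With 4 libraries in 2 groups this measure mostly reads the size of the change, and the points share their libraries. Celf5 encodes an RNA-binding protein, Trp53inp1 a stress protein known as a target of p53, and Dcxr a sugar reductase.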

How the data were processed

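Total RNA libraries of untreated and genistein-treated MEF cells were compared, with 2 per group, grouped by their titles. The authors used Trim Galore for trimming of the paired reads, STAR for alignment to mm10 (GRCm38) with up to 100 alignments per read, and TEtranscripts for counting. They deposited unnormalised integer counts for each gene and repeat subfamily. The strand setting was not given in the sources used here. An unnamed entry (0.00208% to 0.00314% of a library) was left out. Gene symbols matched 47224 identifiers, and coordinates and exon lengths came from a later GENCODE release of GRCm38 than the one used for counting.

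Counts were tested with edgeR 4.0.16 in R 4.3.3 (filterByExpr, which kept 16240 genes and 1118 repeats, TMM scaling, quasi-likelihood test, Benjamini-Hochberg adjustment over all kept entries). Standard errors are the log2 fold change divided by the square root of F. A floor of 3 counts was used for a count of 0. With 2 libraries against 2 the smallest two-sided p of an exact permutation test is 0.333, so the model was used. No molecular identifiers are described for these libraries, so reads may include PCR copies of a molecule.

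The members and lists were chosen with earlier results of these data known. Some genes of the pathway list are not reported here, and the list was described without them. Named were all members, pathway genes past all 3 thresholds, 9 core pathway genes, genes overlapping a member or nearest to Notch3 with at least 10 counts, the 5 genes closest to Notch3 with a mean normalised count over 100 (without predicted genes and pseudogenes), and the lowest and highest marker of a list. Other pathway genes and markers were named as examples after their values were seen. The test was checked on simulated counts in which a small part of the entries was changed. Their spread was the one fitted to these libraries. The check therefore does not cover a broad change or a replicate spread that is too small. Alternatives covered scaling, filtering, DESeq2 1.42.0, thresholds, genes alone, a replicate block, gene length and leaving out each library.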

Additional observations from a re-analysis of the deposited data

How the results depend on the processing

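Under the alternatives the log2 fold changes and calls of the members are descriptions, since this comparison chose the list and each fit uses the same libraries. Jag1, Hey1 and Nrarp kept their direction but not always the call. For Jag1 the call was lost with RLE size factors, with no low-count filter, with DESeq2 and with the replicate block. The log2 fold changes there were 0.11, 0.0894, 0.11 and 0.11, in that order. They lay from 0.0611 to 0.18 when each library was left out, fits with 1 library in a group for which no call is given. With DESeq2 the log2 fold changes of Hey1 and Nrarp were -0.88 and -0.68, no longer called. They lay from -1.12 to -0.57 and from -0.81 to -0.52 when each library was left out. Notch4, called under no alternative, lay from -0.27 to 0.55, so its direction rested on single libraries. Adam17 lost its call with DESeq2, at a log2 fold change of 0.14, and had 0.12 without untreated 2. The cause was not tested.

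Thresholds set the counts by construction. At an adjusted p under 0.05 alone, 4 members were higher and 4 lower, 29 pathway genes higher and 16 lower, and 5436 genes higher and 6210 lower. With a mean normalised count over 10, 2 pathway genes (Aph1c joining Neurl1b) were higher, and 1496 genes were higher and 1025 lower. The higher pathway genes past all thresholds numbered 0 to 1 when each library was left out, as Neurl1b fell to 0.98 without untreated 1. The pathway median was 0.17 with factors from genes alone and with genes fitted alone, 0.19 with library totals, and 0.0969 to 0.16 when each library was left out. The median of all tested genes, -0.03 in the main fit, moved too. It was 0.01, 0.01 and 0.04 with those scalings, in that order, and -0.04 to -0.02 when each library was left out. With no low-count filter the pathway median was 0.11 and that of all tested genes 0.01. With the longest transcript as length, genistein levels were 11.9 RPKM for Notch1, 21.5 for Notch2, 2.24 for Jag2, 14.8 for Hes1 and 0.269 for Hey1. Libraries with the same replicate number did not deviate together (r = -0.026 across kept entries). With 2 libraries per group both replicate numbers must give the same value, so this is a single comparison. No pairing was taken from the numbers. The replicate block left 2 members higher and 0 lower past all thresholds. Notch4, Hey1 and Nrarp had 13.2 to 42.3 normalised counts, so few reads stand behind their values.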
